A study of Mus musculus with 6 samples.

Results

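The genes described here encode the secreted and membrane-bound metalloproteases that cut extracellular matrix and the proteins that hold them in check. Members were chosen by name alone, as every gene of the deposited count table whose symbol is an Mmp number, an Adamts or Adamtsl number, or Timp1 to Timp4. That gave 48 genes of the 20071 in the table, namely 22 MMP, 17 ADAMTS, 5 ADAMTSL and 4 TIMP genes. Bone marrow MSCs, which are stromal cells that can form osteoblasts, came from the femurs of 6-week-old mice on a C57BL/6J background. They were cultured for 7 days in osteogenic medium with ascorbic acid, β-glycerophosphate and dexamethasone. One group carried 2 floxed Pcif1 alleles without Cre (Pcif1fl/fl, labelled WT and called WT here), and the other carried the same floxed alleles with the Prrx1-Cre transgene (Prrx1-Cre;Pcif1fl/fl, labelled Pcif1 CKO and called CKO here), with 3 libraries in each group. Prrx1-Cre is driven by a limb mesenchyme promoter, so other cell types of a marrow culture would keep PCIF1, the enzyme that writes m6Am next to the mRNA cap. The comparison asked how loss of PCIF1 in mesenchymal cells alters their transcripts during osteogenic induction.

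MMPs are zinc proteases made as inactive precursors. Collagenases open the collagen triple helix, gelatinases digest the unwound chains, stromelysins cut proteoglycans and glycoproteins and activate other MMPs, and membrane-type MMPs act at the cell surface. ADAMTS proteases carry thrombospondin repeats and include enzymes that cleave aggrecan and versican and enzymes that trim procollagen, while ADAMTSL proteins share the repeats but lack a protease domain. TIMPs bind the active site of these proteases and block it. In bone, collagenase-3 (MMP13) and MT1-MMP (MMP14) are known for remodelling the matrix that osteoblasts lay down.

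Libraries held between 20258209 and 28227696 counts. Libraries that carry the same label are taken as replicates. The design text speaks of duplicates, while the labels give 3 libraries of each genotype, and all 6 were used. Since the labels do not say whether they came from separate mice, p-values measure the spread between libraries only. The counts of Pcif1 were at 39.3 to 42.8 CPM in WT and 37.8 to 39.7 CPM in CKO libraries, where CPM is the count scaled for library size by edgeR with its TMM factors. Counts over the whole gene do not show whether the floxed exons are missing. WT replicate 3 stood apart, with 3.63% of its counts on mitochondrial genes against 1.40% to 1.57% in the other 5 libraries. Xist, the RNA that silences an X chromosome in female cells, was at 232 to 443 CPM in WT and at most 1.79 CPM in CKO libraries, while the Y-linked Ddx3y was at 48.4 to 62.2 CPM in WT and 99.1 to 104 CPM in CKO libraries. Genotype and the sex makeup of the cultures cannot be told apart. The cultures were not pure stroma. The 10 macrophage markers summed to between 30200 and 33899 CPM in every library, and Lyz2 made up most of each sum. Of the 10, 0 were past the edgeR test between the genotypes. An unadjusted p under 0.05 was reached by 2 of them, and by 2932 of the 13733 genes tested. With 4.51% of all genes tested called lower and 2.88% higher, a count of 0 in 10 does not set these markers apart from the rest. Of the 7 marrow stroma markers, 4 were lower and 1 higher in CKO, or 57.1% and 14.3%. Their log2 fold changes ran from -2.72 for Lepr and -2.44 for Cxcl12 to 1.52 for Thy1. In such bulk RNA, fewer cells of a type and less RNA per cell cannot be told apart.

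Of the 48 members, 35 passed the expression filter and were tested among 13733 genes. The other 13 had at most 17 counts in any library and are listed at the end. At an adjusted p-value under 0.05, 5 members fell in CKO, or 14.3% of those tested, against 4.51% of all genes tested, and 4 rose, or 11.4%, against 2.88% of all genes. Adjusted p-values come from the quasi-likelihood test of edgeR, corrected over all genes tested by the Benjamini-Hochberg method. The members that fell were Adamts15, Adamts9, Adamts5, Adamtsl3 and Mmp28, and those that rose were Timp1, Mmp10, Mmp2 and Adamtsl1. With a fold change of at least 2 required as well (1 on the log2 scale), 3 of the 35 members tested were lower, against 2.50% of all genes tested. Another 3 of the 35 were higher, against 1.03%. The median log2 fold change of the members tested was -0.023, beside 0.0017 for all genes. Every CKO library lay below every WT library for 8 of the 35 members tested, against 15.7% of all genes tested. Every CKO library lay above for 10 of the 35, against 15.0%. Without WT replicate 3, 10 of 36 members tested were lower and 9 higher, and 10.4% and 11.1% of all genes were called lower and higher.

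**Figure D1:**
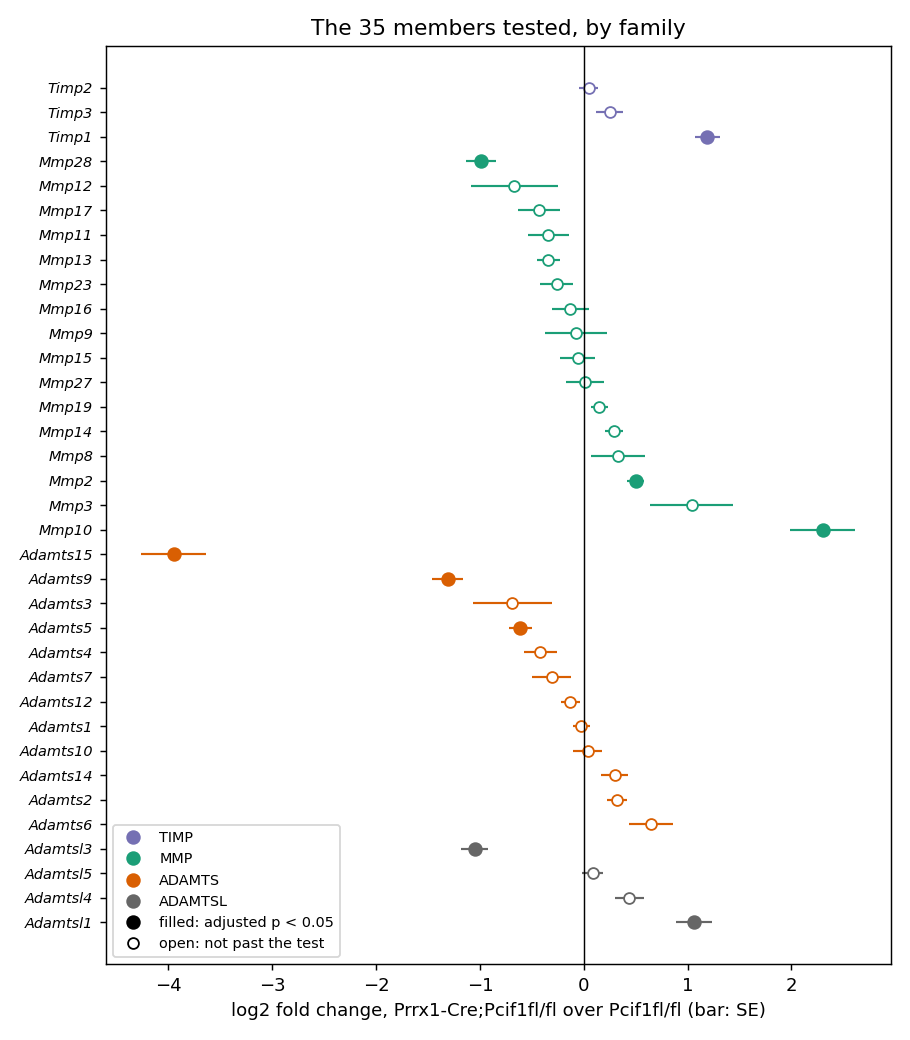
Log2 fold change of CKO over WT (x axis) for each of the 35 members tested (y axis), with bars of 1 standard error and colours for the 4 families; filled points are past an adjusted p-value of 0.05. The 9 filled points run from -3.95 for Adamts15 to 2.30 for Mmp10, and the 3 filled ADAMTS genes all lie left of 0.

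Mmp13, Mmp12, Mmp1b, Mmp3, Mmp1a, Mmp10, Mmp8, Mmp27 and Mmp7 lie in this order within 427 kb of chromosome 9. Their levels in the same cells ranged widely, from 334 CPM per kb for Mmp13 in WT to Mmp1a, Mmp1b and Mmp7 with at most 3 counts in every library. Within the cluster, Mmp10 passed the test with all 6 libraries, and Mmp13 did so without WT replicate 3, while Mmp13 and Mmp12 had negative and Mmp3 and Mmp8 positive log2 fold changes. The promoters of Mmp13, Mmp3 and Mmp10 are shown because these neighbours share motif letters and differ in their values, and that of Timp1 because it rose with Mmp10. Each line gives the 100 bases before the transcription start annotated by RefSeq (build GRCm38.p6, plus strand), with capitals at TGANTCA, the AP-1 motif, which reads the same on both strands, and at TATAAA on the sense strand. The stretches are chr9:7272414-7272513 for Mmp13, chr9:7445722-7445821 for Mmp3, chr9:7502242-7502341 for Mmp10 and chrX:20870066-20870165 for Timp1.
Mmp13: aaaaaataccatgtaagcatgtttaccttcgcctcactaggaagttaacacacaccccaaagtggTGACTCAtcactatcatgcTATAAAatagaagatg
Mmp3: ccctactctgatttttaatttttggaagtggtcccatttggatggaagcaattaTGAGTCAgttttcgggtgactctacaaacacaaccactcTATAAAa
Mmp10: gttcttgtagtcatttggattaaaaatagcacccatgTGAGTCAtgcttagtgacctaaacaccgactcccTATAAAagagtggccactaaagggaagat
Timp1: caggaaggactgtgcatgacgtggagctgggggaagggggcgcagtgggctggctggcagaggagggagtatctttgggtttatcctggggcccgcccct

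All 3 MMP stretches held both motifs, and the Timp1 stretch held neither. RefSeq promoters were found for 35 of the 48 members, 38 promoters in all. Of these, 7 held TGANTCA within 250 bases before the start, or 18.4%, against 6.75% of all 32851 promoters, and 9 held TATAAA, or 23.7%, against 7.59%. The promoters with TGANTCA were those of Mmp10, Mmp12, Mmp13, Mmp1a, Mmp1b, Mmp3 and Mmp7, all of them in the chromosome 9 cluster, and both Mmp10, which rose, and Mmp13, which did not pass, are among them. A match of letters is not evidence of binding. PCIF1 acts where the first transcribed base is an adenosine, and the annotated first base was A in 16 of the 38 promoters, or 42.1%, against 34.4% of all promoters. Of the members that changed and had a promoter, Timp1 and Mmp10 start with A and Adamts9, Adamtsl3 and Mmp28 with C. Annotated starts may differ from those used in these cells, and m6Am was not measured in these libraries.

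**Figure D2:**
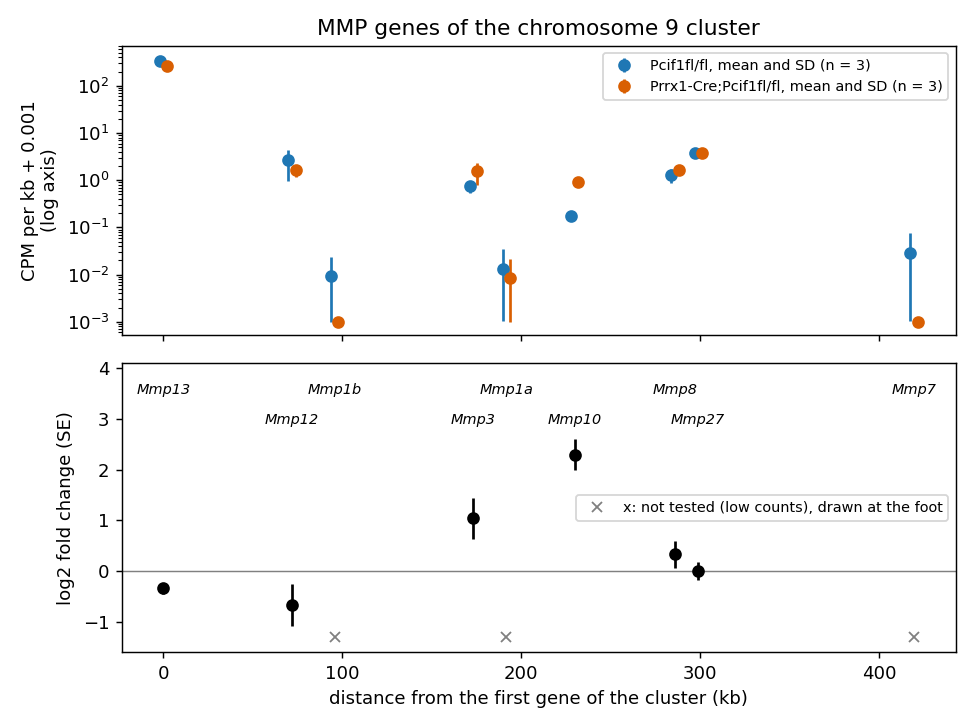
The 9 MMP genes of the chromosome 9 cluster by distance in kb from the start of Mmp13 (x axis), with the mean level and SD of each genotype in CPM per kb plus 0.001 (top, log axis, points of the genotypes drawn side by side) and the log2 fold change with its standard error (bottom). Mmp13 was the most abundant at 334 CPM per kb in WT, and Mmp10 had the largest log2 fold change at 2.30; crosses mark the 3 genes that were not tested.

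The inhibitor Timp1 (chromosome X, 20870166 to 20874735) rose 2.28-fold in CKO. It was at 195, 171 and 152 CPM in WT replicates 1 to 3 and at 379, 428 and 374 CPM in CKO replicates 1 to 3. The lowest CKO library was well above the highest WT library, and the log2 fold change was 1.19 (SE 0.12, edgeR adjusted p = 0.000614). Timp1 codes for a secreted TIMP that is known as an inducible member of the family. The gene lies within Syn1 on the opposite strand, without exonic overlap. Beside the difference in Xist between the groups, the 455 other X-linked genes tested had a median log2 fold change of -0.027, with quartiles of -0.26 and 0.18, and 5 of them had a larger one than Timp1. Whether the number of active X chromosomes takes part in the difference in Timp1 was not tested.

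Timp2 (chromosome 11) was the most abundant member per length in both genotypes and did not pass the test. Its level was 2315, 2144 and 2465 CPM in the WT libraries and 2335, 2428 and 2397 CPM in the CKO libraries. The groups overlapped, with a log2 fold change of 0.048 (SE 0.09, edgeR adjusted p = 0.801). TIMP2 is known both to inhibit MMP2 and, together with MMP14, to help activate its precursor. Timp3, whose product stays bound to the matrix and also inhibits ADAMTS proteases, was at 355, 368 and 485 CPM in WT and 463, 474 and 503 CPM in CKO libraries. WT replicate 3 lay among the CKO libraries, and the log2 fold change was 0.25 (SE 0.13, edgeR adjusted p = 0.307). Without WT replicate 3 the log2 fold change of Timp3 was 0.41 with an adjusted p of 0.000221. Of the exonic bases of Timp3, 21.3% overlap Syn3 on the opposite strand, and the strand setting of the counts is not given in the sources used here. Timp4 had at most 11 counts in a library and was not tested.

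Per length, in CPM per kb of exonic sequence, Timp1 made up 19.8% to 25.6% of the summed TIMP level in WT libraries and 38.3% to 41.4% in CKO libraries. Timp2 made up the largest share in both, at 69.3% to 73.3% in WT and 53.6% to 56.0% in CKO. The summed TIMP level was 836 ± 42.1 CPM per kb (SD, n = 3) in WT and 1115 ± 42.5 (SD, n = 3) in CKO, while the summed MMP level was 601 ± 25.1 and 585 ± 22.0 CPM per kb (SD, n = 3 each). The ratio of the TIMP sum to the MMP sum was therefore 1.35 to 1.46 in WT and 1.81 to 1.96 in CKO libraries, with no overlap. These are ratios of transcript levels and say nothing of protein.

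**Figure D3:**
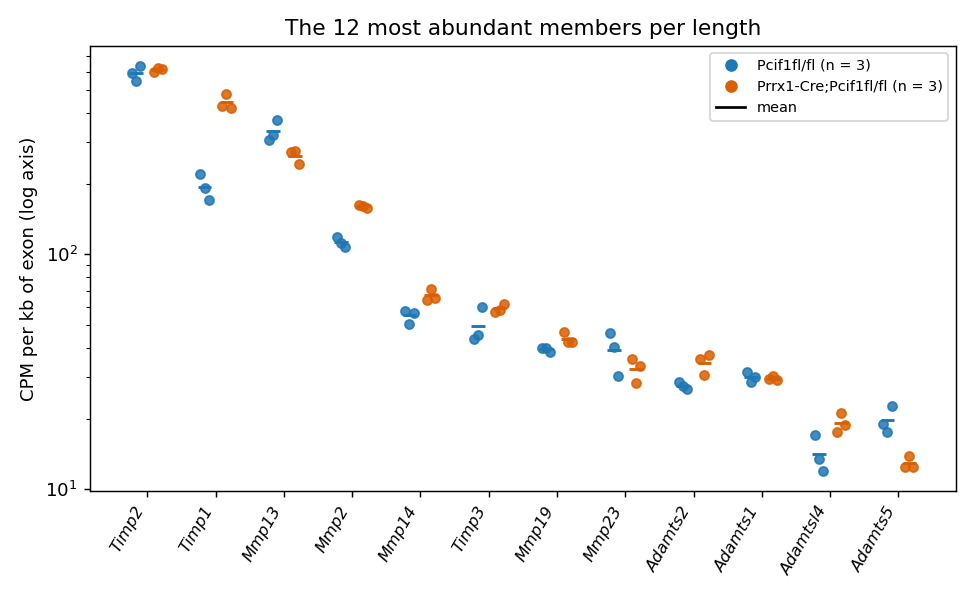
Level per length in CPM per kb of exon (y axis, log scale) of the 12 members with the highest mean level (x axis), with 1 point per library and a line at the mean of each genotype. The Timp2 means were 592 CPM per kb in WT and 613 in CKO, while the Timp1 mean was 194 in WT and 443 in CKO.

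Gelatinases and collagenases carried most of the MMP transcript. The collagenase gene Mmp13 (chromosome 9, 7272514 to 7283331), a marker of osteoblasts and hypertrophic chondrocytes, was at 818, 858 and 1001 CPM in WT and 730, 735 and 646 CPM in CKO libraries. Every CKO library was below every WT library, but the log2 fold change of -0.34 (SE 0.11) did not pass the test (edgeR adjusted p = 0.105). Without WT replicate 3, the highest library, the log2 fold change of Mmp13 was -0.25 and the adjusted p was 0.0138. The gelatinase gene Mmp2 (chromosome 8) moved the other way, from 400, 377 and 365 CPM in WT to 545, 541 and 533 CPM in CKO libraries. The groups did not overlap and the CKO libraries were close together, and Mmp2 rose by 0.50 on the log2 scale (SE 0.08, edgeR adjusted p = 0.00803). Without CKO replicate 1 or 3 the log2 fold changes of Mmp2 were 0.50 and 0.51, with adjusted p-values of 0.0626 and 0.0566.

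Mmp13 made up 52.0% to 59.5% of the summed MMP level per length in WT libraries and 43.2% to 46.2% in CKO libraries, and Mmp2 made up 17.2% to 20.2% in WT and 26.9% to 28.3% in CKO. The ratio of Mmp13 to Mmp2 per length was 2.58, 2.87 and 3.46 in WT and 1.69, 1.71 and 1.53 in CKO libraries. The groups did not overlap, and an exact two-sided permutation test gave p = 0.1, the smallest value possible with 3 libraries against 3. The other gelatinase gene, Mmp9, was at 1.80 to 2.97 CPM in WT and 1.54 to 2.84 CPM in CKO libraries, far below Mmp2, with a log2 fold change of -0.075 (SE 0.30, edgeR adjusted p = 0.912). Mmp9 is known for its expression in osteoclasts and other myeloid cells. The osteoclast markers Calcr, Dcstamp and Ocstamp were at or near 0 in all libraries, and 0 of the 4 osteoclast markers tested passed the edgeR test, with 2 at an unadjusted p under 0.05. A count of 0 in 4 does not set them apart from all genes tested, of which 4.51% were called lower and 2.88% higher. All 7 osteoclast markers summed to 157 to 169 CPM in WT and 203 to 240 CPM in CKO libraries, and their part in the level of Mmp9 was not tested. The neutrophil collagenase gene Mmp8 was at 2.49 to 4.34 CPM in WT and 3.33 to 4.68 CPM in CKO libraries, with a log2 fold change of 0.33 (SE 0.26, edgeR adjusted p = 0.525). The neutrophil markers Elane, Mpo and Ly6g were at or near 0, and 1 of the 2 neutrophil markers tested, S100a8, was higher in CKO (log2 fold change 1.45, SE 0.34, edgeR adjusted p = 0.0394). The 5 measured summed to 1.00 to 1.14 CPM in WT and 1.30 to 1.98 CPM in CKO libraries, and their part in the level of Mmp8 was not tested.

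Among the membrane-type genes, Mmp14 (chromosome 14), whose product cuts collagen at the cell surface and activates MMP2, was the most abundant. Its level was 344, 302 and 337 CPM in WT and 382, 426 and 390 CPM in CKO libraries. The groups did not overlap, and the log2 fold change was 0.29 (SE 0.09, edgeR adjusted p = 0.115). Without WT replicate 3 it was 0.31 with an adjusted p of 0.00528. Mmp15, Mmp16 and Mmp17 were below 13 CPM in every library, none was past the test with all 6 libraries, Mmp17 passed without WT replicate 3, and their log2 fold changes were -0.059, -0.13 and -0.43. Mmp24 and Mmp25 were not tested.

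The largest rise among the members tested was that of Mmp10 (chromosome 9, 7502352 to 7510240), the gene of stromelysin-2, a protease able to activate procollagenases. It was a rare transcript, at 0.262, 0.368 and 0.287 CPM in WT and 1.58, 1.64 and 1.40 CPM in CKO libraries, or 6, 10 and 8 counts against 35, 33 and 29. All CKO libraries were above all WT libraries, and the log2 fold change was 2.30 (SE 0.31, edgeR adjusted p = 0.00294). Its close paralog Mmp3, stromelysin-1, was at 1.27, 1.80 and 1.04 CPM in WT and 2.57, 1.54 and 4.38 CPM in CKO libraries. CKO replicate 2 lay among the WT libraries, and the log2 fold change of 1.04 (SE 0.40) did not pass the test (edgeR adjusted p = 0.172). Mmp11, stromelysin-3, was at 8.71 to 14.8 CPM in WT and 8.76 to 9.77 CPM in CKO libraries and did not pass the test with all 6 libraries. It passed without WT replicate 3, the lowest of the 6.

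The MMP genes of the remaining classes fell into a changed gene and several that did not pass. Mmp28 (chromosome 11), which encodes epilysin, was at 14.4, 14.1 and 13.8 CPM in WT and 6.39, 6.77 and 8.23 CPM in CKO libraries. The WT libraries were close together and lay above all CKO libraries, and the log2 fold change was -0.99 (SE 0.14, edgeR adjusted p = 0.00422). The antisense gene 1700020L24Rik shares 12% of its exonic sequence. Mmp19 was at 141, 141 and 135 CPM in WT and 165, 149 and 150 CPM in CKO libraries, with a log2 fold change of 0.15 (SE 0.08, edgeR adjusted p = 0.358). Antisense genes share 28.3% of its exonic sequence. Mmp23 was at 108, 94.8 and 71.2 CPM in WT and 83.9, 66.5 and 78.7 CPM in CKO libraries. The lowest WT library, replicate 3, lay within the CKO range, and the log2 fold change was -0.26 (SE 0.16, edgeR adjusted p = 0.408), against -0.41 and 0.00475 without that library. Mmp27 had a log2 fold change of 0.010.

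Mmp12, the macrophage metalloelastase gene, was, of the members tested, the most uneven within a genotype relative to its mean. It was at 10.1, 14.0 and 33.2 CPM in WT and 15.5, 8.56 and 12.1 CPM in CKO libraries. WT replicate 3 alone stood above the rest, and the log2 fold change was -0.67 (SE 0.42, edgeR adjusted p = 0.412). The macrophage markers moved unevenly in that library. Cd68 was at 1227 CPM there against 695 to 757 CPM in the other 5 libraries. Ptprc, Mrc1 and Itgam were higher there than in the other WT libraries. The summed macrophage markers, most of which is Lyz2, were lowest there at 30200 CPM, near the 30809 and 30853 CPM of CKO replicates 2 and 3. Adgre1, C1qa and Tyrobp were also lower there than in every other library. The part of macrophages in the Mmp12 level of that library was not tested.

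Among the ADAMTS genes, those that changed with all 6 libraries belonged to the proteoglycanase group. Of its 5 genes tested, Adamts15, Adamts9 and Adamts5 fell, and Adamts4 and Adamts1 did not pass the test. Outside this group, 0 of 7 ADAMTS genes tested passed at an adjusted p-value under 0.05 with edgeR, limma-voom or DESeq2, and 3 had an unadjusted p under 0.05 with edgeR. With 4.51% of all genes called lower and 2.88% higher, a count of 0 in 7 does not set these genes apart from the rest. Without WT replicate 3, Adamts4, Adamts2 and Adamts6 passed as well. The steepest fall was that of Adamts15 (chromosome 9, 30899155 to 30922452), whose product cleaves versican and aggrecan. It was at 5.33, 4.56 and 3.62 CPM in WT and 0.270, 0.199 and 0.385 CPM in CKO libraries, from 122, 124 and 101 counts to 6, 4 and 8. The lowest WT library was far above the highest CKO library, and Adamts15 fell by 3.95 on the log2 scale (SE 0.31, edgeR adjusted p = 0.00025), which is 15.5-fold.

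Adamts9 (chromosome 6), a versicanase of developing tissues, was at 27.1, 26.8 and 36.0 CPM in WT and 12.8, 11.8 and 11.5 CPM in CKO libraries. The groups were well apart and Adamts9 fell by 1.31 on the log2 scale (SE 0.15, edgeR adjusted p = 0.00124). Antisense genes share 12% of its exonic sequence, and their reads may be in its count. Adamts5 (chromosome 16), which encodes the major aggrecanase of mouse cartilage, was the most abundant of the 3. It was at 204, 190 and 243 CPM in WT and 135, 149 and 134 CPM in CKO libraries, without overlap, and fell by 0.61 on the log2 scale (SE 0.11, edgeR adjusted p = 0.0147). Without CKO replicate 1 or 3 its log2 fold change was -0.58 both times, with adjusted p-values of 0.0939 and 0.0912.

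Adamts1 lies 53.1 kb from Adamts5 on chromosome 16, on the same strand, and its level was 168, 152 and 159 CPM in WT and 156, 161 and 154 CPM in CKO libraries. The groups overlapped, with a log2 fold change of -0.023 (SE 0.08, edgeR adjusted p = 0.9). The ratio of Adamts5 to Adamts1 per length was 0.597, 0.612 and 0.752 in WT and 0.425, 0.456 and 0.425 in CKO libraries, again without overlap (exact two-sided permutation test, p = 0.1, the smallest possible). Adamts4, the aggrecanase gene induced by inflammatory cytokines, was at 33.5, 29.1 and 21.9 CPM in WT and 20.4, 21.6 and 21.3 CPM in CKO libraries. WT replicate 3 nearly reached the CKO libraries, and the log2 fold change of -0.42 (SE 0.16) did not pass the test (edgeR adjusted p = 0.168). Adamts7 and Adamts12 form a separate pair, with log2 fold changes of -0.31 and -0.13, and did not pass the test. Comp, which encodes a cartilage matrix protein cleaved by ADAMTS7 and ADAMTS12, was lower in CKO, with a log2 fold change of -1.10 (SE 0.16, edgeR adjusted p = 0.00516).

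None of the 3 procollagen N-proteinase genes passed the edgeR test, which called 4.51% of all genes tested lower and 2.88% higher. An unadjusted p under 0.05 was reached by 2 of the 3, and by 2932 of the 13733 genes tested. Adamts2, which removes the amino-terminal propeptide of fibrillar procollagens, was at 267, 257 and 249 CPM in WT and 334, 285 and 347 CPM in CKO libraries. Every CKO library was above every WT library, but the log2 fold change of 0.32 (SE 0.10) did not pass the test with all 6 libraries (edgeR adjusted p = 0.0974). Adamts14 had a log2 fold change of 0.30 (SE 0.13, edgeR adjusted p = 0.221), also without overlap. Adamts3, at 0.360 to 0.874 CPM over all libraries, had one of -0.69 (SE 0.38, edgeR adjusted p = 0.356). Of the fibrillar procollagen chains in the substrate list, Col1a1 and Col1a2 rose in the same libraries by 0.61 and 0.64 on the log2 scale (edgeR adjusted p = 0.0154 and 0.0322). Col2a1, Col3a1 and Col5a1 had log2 fold changes of 0.69, 0.15 and 0.30 and did not pass the test (edgeR adjusted p = 0.111, 0.552 and 0.142). Adamts6 and Adamts10, which act on fibrillin microfibrils and cell adhesions, had log2 fold changes of 0.65 (SE 0.21, edgeR adjusted p = 0.107) and 0.037 (SE 0.14, edgeR adjusted p = 0.906).

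The ADAMTSL genes encode proteins of the microfibril and matrix without protease activity. Of the 4 tested, 1 fell and 1 rose, or 25% each, against 4.51% and 2.88% of all genes tested. The other 2 did not pass with all 6 libraries. Adamtsl3 (chromosome 7) was at 23.8, 23.1 and 26.6 CPM in WT and 13.5, 10.9 and 11.1 CPM in CKO libraries. The groups were well apart and Adamtsl3 fell by 1.05 on the log2 scale (SE 0.13, edgeR adjusted p = 0.00223). Adamtsl1 (chromosome 4) was at 3.49, 3.82 and 3.66 CPM in WT and 7.52, 6.52 and 8.95 CPM in CKO libraries. It rose by 1.06 on the log2 scale (SE 0.17, edgeR adjusted p = 0.00718) with no overlap. Adamtsl4, linked to fibrillin assembly, was at 71.9, 56.1 and 50.3 CPM in WT and 73.6, 88.6 and 78.8 CPM in CKO libraries, with a log2 fold change of 0.44 (SE 0.14, edgeR adjusted p = 0.12), and Adamtsl5 had one of 0.085. The groups did not overlap for Adamtsl4, which passed the test without WT replicate 1 or 3.

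**Figure D4:**
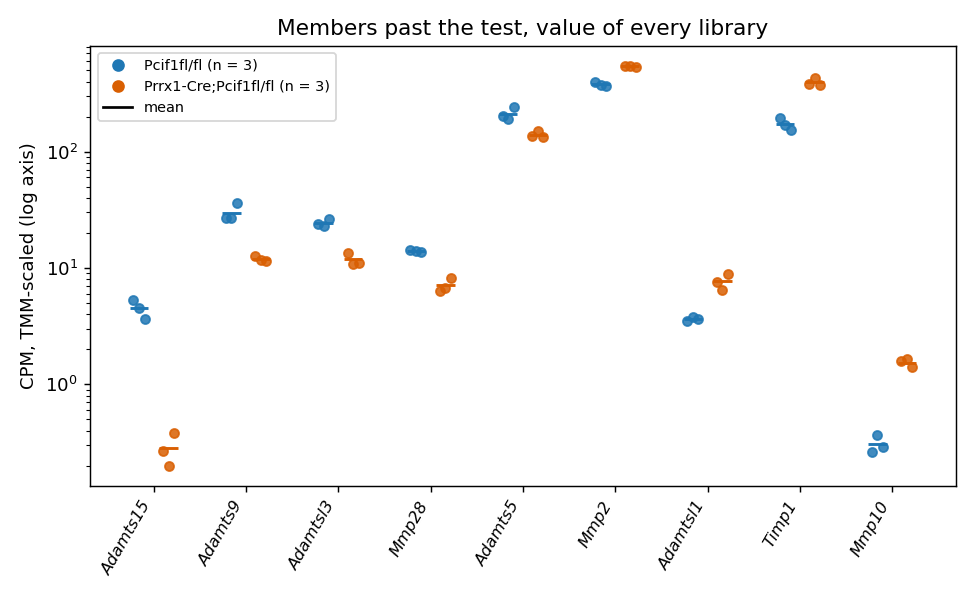
Level of the 9 members past the test in CPM (y axis, log scale), ordered by log2 fold change (x axis), with 1 point for each of the 3 libraries of each genotype and a line at the mean. The points of the genotypes are separate for each gene, from Adamts15 at 4.50 CPM on average in WT and 0.285 in CKO to Mmp10 at 0.305 and 1.54.

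The 3 further lists, written without the members, place these values among the other genes of matrix proteolysis. They were written with earlier results of these data known, so their shares describe the lists and are not evidence of an excess. Of 27 tested regulators of matrix proteolysis, 4 fell and 8 rose, or 14.8% and 29.6%, against 4.51% and 2.88% of all genes tested, with a median log2 fold change of 0.13. Genes of the plasminogen activator system, which turns plasminogen into plasmin and through it activates pro-MMPs, were among those that rose. Plau and Plat, the urokinase and tissue-type activators, rose by 1.00 and 0.76 on the log2 scale (SE 0.15 and 0.11), and the urokinase receptor gene Plaur rose by 1.46 (SE 0.14, edgeR adjusted p = 0.000504). Serpinb2, the gene of an inhibitor of these activators, rose as well, from 2.47 ± 1.00 to 12.8 ± 3.53 CPM (SD, n = 3 each). Serpine2, another gene of the serpin family in this list, fell, with a log2 fold change of -0.35 (edgeR adjusted p = 0.0385). Cd44, whose product docks MMPs at the cell surface, rose by 0.71. The genes that fell included Pcsk5 and Pcsk6, proprotein convertases that can cut protease precursors, with log2 fold changes of -1.47 and -0.92. Reck, the gene of a membrane-anchored MMP inhibitor and named after its values were seen, was at 22.2, 20.6 and 27.4 CPM in WT and 15.7, 16.8 and 16.5 CPM in CKO libraries, with a log2 fold change of -0.52 (SE 0.13, edgeR adjusted p = 0.0556).

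**Figure D5:**
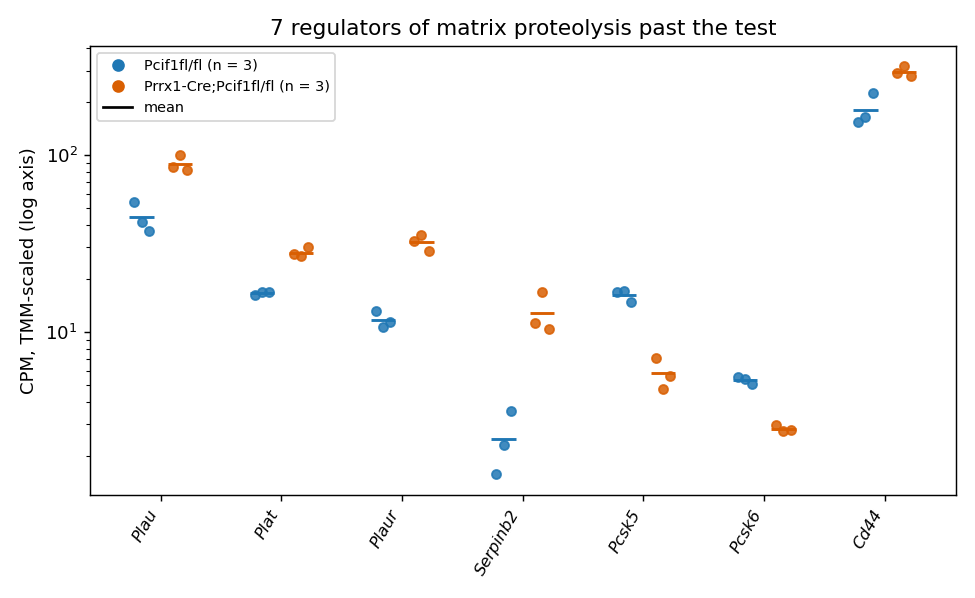
Level in CPM (y axis, log scale) of 7 regulators of matrix proteolysis past the test (x axis), with 1 point per library and a line at the mean of each genotype (n = 3). Plau, Plat, Plaur, Serpinb2 and Cd44 lie higher in CKO, and Pcsk5 and Pcsk6 lie lower, without overlap between the genotypes.

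Of 21 other matrix-degrading enzyme genes tested, 3 fell and 1 rose, or 14.3% and 4.76%, and the share that rose is near the 2.88% of all genes. Htra3, a serine protease gene, fell by 0.92, and Fap, the gene of fibroblast activation protein, fell by 0.81, while Ctsl, the gene of a lysosomal cysteine protease, rose by 0.67 (edgeR adjusted p = 0.00223, 0.00482 and 0.00961). Of 28 substrate genes tested, 6 fell and 6 rose, or 21.4% each, against 4.51% and 2.88% of all genes. The fall was steepest in Igfbp5 (log2 fold change -3.33) and Fbn2 (-2.40), and Lum, Ltbp1 and Postn rose by 1.02, 0.55 and 0.69. Among the 7 osteoblast genes tested, Sp7, Alpl and Ibsp fell and Col1a1 rose, or 42.9% and 14.3%. Of the 4 chondrocyte genes tested Comp and Col10a1 fell, or 50%. Col2a1 and Sox9 had log2 fold changes of 0.69 and 0.017 and did not pass. Of 6 adipocyte genes tested 4 fell, or 66.7%, with Adipoq at 47.0 ± 5.96 CPM (SD, n = 3) in WT and 0.824 ± 0.608 CPM (SD, n = 3) in CKO. Fabp4 and Lpl had log2 fold changes of 0.46 and 0.23 and did not pass. Over all genes tested, 4.51% fell and 2.88% rose. The part of these shifts in the levels of the members was not tested.

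Of the members, 13 were too rare to test, and 7 of them had at most 3 counts in every library. The 7 were Mmp1a, Mmp1b, Mmp7, Mmp21, Adamts16, Adamts18 and Adamtsl2. A count of 3 or fewer does not show that a gene is silent, and a change in these genes was not detectable at this depth. Of the other 6, Adamts17 had 14, 17 and 12 counts in WT and 0, 7 and 8 in CKO libraries, Timp4 had 2 to 11 counts, and Adamts13 had 0 counts in the WT libraries and 0, 4 and 6 in the CKO libraries. Adamts20, Mmp24 and Mmp25 had at most 9 counts. Mmp20, Adamts8 and Adamts19 were not analysed here. Limits from counts of 0 to 3 cover counting error only, since copies made by PCR cannot be told from separate molecules.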

How the data were processed

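Poly(A) RNA of MSCs after osteogenic induction was sequenced by the authors with paired ends, in 3 WT (Pcif1fl/fl) and 3 CKO (Prrx1-Cre;Pcif1fl/fl) libraries. The deposited table holds raw, whole-number counts for each gene. Alignment by the authors was to the mm10 genome, using HISAT2. The counter, its annotation and its strand setting are not given in the sources used here. The submitters' processing notes also name FastQC and DESeq2. No fold change or p-value of the authors was used.

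The 92 rows that repeat an Ensembl ID, with identical counts, were dropped. The whole table was filtered by filterByExpr, scaled by TMM and fitted by glmQLFit and glmQLFTest without covariates (edgeR 4.0.16, R 4.3.3), and the standard error is the log2 fold change over the root of F. The study's methods name DESeq2, which was run as an alternative (1.42.0), as was limma-voom (3.58.1). Positions, exonic lengths and overlaps come from GENCODE M21 on GRCm38, the mm10 assembly, and levels per length use the union of all annotated exons, which may exceed the transcript in use. The labels' replicate numbers did not pair libraries, with correlations of deviations of 0.0701, -0.0552 and 0.00265. In counts simulated for this comparison, with a log2 change of 2 given to 200 genes, edgeR recovered 199 of the 199 tested among 13746 genes, with 5 false calls. The simulation used the same dispersion for every gene and had no library that stood apart as WT replicate 3 did. It does not show what could be recovered at the smaller changes of most members.

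Members, lists and tests were chosen with earlier results of these data known. Members with an adjusted p-value under 0.05, the 8 highest per length, Mmp13 and Timp1 are given for every library; other members shown that way were added after their values were seen. Apart from later additions such as Reck, Serpine2, Col1a2 and Col3a1, at most 8 genes per further list are named. A gene that this rule names is not reported here.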

Additional observations from a re-analysis of the deposited data

How the results depend on the processing

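The 9 members that passed the test were the same 9 with DESeq2, limma-voom, RLE or total-count scaling, no expression filter, a mean of at least 10 counts and the replicate block, which gave 5 lower and 4 higher members. With a log2 fold change of at least 1 required as well, 3 members were lower and 3 higher, and 1 MMP gene was called in place of 3. Leaving out 1 library at a time gave 4 to 10 lower and 3 to 9 higher members, with 2 to 8 MMP, 2 to 6 ADAMTS, 2 to 3 ADAMTSL and 1 to 2 TIMP genes called. The upper ends came from leaving out WT replicate 3, where 36 members were tested and 10.4% of all genes were called lower and 11.1% higher, and the 10 members gained were Adamts2, Adamts4, Adamts6, Adamtsl4, Mmp11, Mmp13, Mmp14, Mmp17, Mmp23 and Timp3. Without CKO replicate 1 or 3, Adamts5 and Mmp2 were no longer past the threshold. In these 2 settings 2.32% and 2.35% of all genes were called lower and 1.06% and 1.07% higher, against 4.51% and 2.88% with all 6 libraries. The log2 fold change of Timp2 turned to -0.0012 without WT replicate 2. The median log2 fold change of the members ran from -0.067 to 0.053 with 1 library left out, and was -0.10 with DESeq2 and -0.11 without a filter, where all 48 members entered. The median of all genes was 0.0054 with RLE and -0.021 with total-count scaling. With 3 libraries a group, the smallest exact permutation p for 1 value is 0.1.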
